A study of Mus musculus with 5 samples.

Results

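Glutathione, thioredoxin and their partner enzymes were followed in cultured macrophages given LPS, each array setting macrophage RNA against RNA of a whole mouse embryo. The members were the genes whose single platform symbol began with Gsta, Gstm, Gstp, Gstt, Gsto, Gpx, Prdx, Txn, Glrx, Aldh or Akr, together with Cat, Sod1, Sod3, Gclc, Gclm, Gsr, Hmox1, Hmox2, Nqo1 and Mgst1; Sod2 was left out by the same rule. This gave 73 genes of 9050 named ones, and 70 of them, among 8452, had a value on all 5 arrays. Sod1, Prdx6 and Akr1b3 were not analysed here. The macrophages were grown from bone marrow of C3H/HeJ mice, whose Tlr4 carries a mutation that makes the strain hyporesponsive to LPS, and were differentiated in vitro with human CSF-1. They were measured without LPS (0 h) or after 0.5, 2, 7 or 21 h with 10 µg per ml of LPS from S. minnesota. All arrays shared total RNA from C57BL6/J whole embryos of 17.5 days as their other channel, so mouse strain and source of RNA differ together. Each time had 1 array, so the differences below are single values without replicate or test, and the labels do not say whether the cultures were separate.

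Glutathione is a small thiol that peroxidases use to reduce peroxides and that transferases attach to reactive electrophiles. Glutathione reductase and the glutamate-cysteine ligase keep it reduced and supplied. Thioredoxin serves peroxiredoxins in a parallel system, and thioredoxin reductase recharges it with electrons from NADPH. Many genes of both systems are targets of the transcription factor NRF2, encoded by Nfe2l2, which is held in check by KEAP1. In macrophages these enzymes are known to buffer the oxidants that the phagocyte NADPH oxidase produces, and HMOX1 degrades the heme of engulfed red cells. In the fetus, liver and red cells are known as rich sources of several of them.

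Values are centred log ratios of macrophage over embryo in the units of the deposited table. A value of 0 is the median gene of an array, and a ratio says nothing of how abundant a transcript was. The base was read as 10 and the direction taken as macrophage over embryo; the labels state neither, and both are judged from marker genes and are likely only. The size rule was a 2-fold difference, or 0.301 in these units. Lyz2, Lcp1, Laptm5, Fcgr1 and Fcer1g, 5 of the 7 measured macrophage markers, were above the size rule on each of the 0, 2, 7 and 21 h arrays, while Cd68 and Tyrobp averaged -0.19 and -0.17. Of the markers of embryonic tissue, 3 of 5 erythroid, 7 of 8 fetal liver, 6 of 7 muscle, 3 of 6 neuronal and 5 of 6 connective tissue genes were lower than embryo by the size rule on each of those arrays. Of 6 measured neutrophil markers 0 were past the rule on each of them, with a median of -0.11, and of 3 T and B cell markers 1 was lower, with a median of -0.33. The 0.5 h array followed the 0 h array poorly across probes (Pearson r = 0.48, where the 2, 7 and 21 h arrays had 0.85, 0.84 and 0.75), and 1104 of its 19828 probes had no value, so ratios against embryo were summarised over the other 4 arrays.

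The regulatory context of the members is shown by a few promoters, from RefSeq on GRCm38.p6, each running from 250 bases before the annotated start to 50 bases after it. Prdx1 and Prdx2 stand on opposite sides of 0, Gstm5 lay below the size rule on every array, and Gsto1 differed at 21 h. Capitals mark matches to TGACNNNGC on either strand, the core of the antioxidant response element through which NRF2 is known to act.
Prdx1, chr4:116685349-116685648, plus strand: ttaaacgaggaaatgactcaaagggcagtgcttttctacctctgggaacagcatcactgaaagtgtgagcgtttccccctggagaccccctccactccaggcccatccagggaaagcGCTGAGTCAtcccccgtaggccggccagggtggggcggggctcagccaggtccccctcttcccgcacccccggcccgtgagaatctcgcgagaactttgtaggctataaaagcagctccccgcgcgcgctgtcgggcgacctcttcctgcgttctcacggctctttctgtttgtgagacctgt
Prdx2, chr8:84969372-84969671, plus strand: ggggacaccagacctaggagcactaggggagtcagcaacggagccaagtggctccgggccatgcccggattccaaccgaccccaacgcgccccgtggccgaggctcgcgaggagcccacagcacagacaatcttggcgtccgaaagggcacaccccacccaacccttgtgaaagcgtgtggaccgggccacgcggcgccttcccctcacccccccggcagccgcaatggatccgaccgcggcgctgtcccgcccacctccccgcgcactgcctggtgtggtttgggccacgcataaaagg
Gstm5, chr3:107895604-107895903, plus strand: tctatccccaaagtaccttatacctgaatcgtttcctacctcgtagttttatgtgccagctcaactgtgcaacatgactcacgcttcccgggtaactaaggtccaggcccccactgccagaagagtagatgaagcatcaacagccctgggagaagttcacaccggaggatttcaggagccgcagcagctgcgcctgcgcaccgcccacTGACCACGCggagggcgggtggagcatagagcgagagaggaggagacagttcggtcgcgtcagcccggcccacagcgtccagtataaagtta
Gsto1, chr19:47854723-47855022, plus strand: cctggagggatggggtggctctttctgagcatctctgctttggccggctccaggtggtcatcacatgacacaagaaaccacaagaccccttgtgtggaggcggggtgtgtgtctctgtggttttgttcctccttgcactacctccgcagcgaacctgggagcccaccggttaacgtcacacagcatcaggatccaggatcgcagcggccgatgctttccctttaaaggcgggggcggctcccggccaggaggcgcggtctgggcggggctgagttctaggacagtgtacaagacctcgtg
The Prdx1 match begins 133 bases before the start and contains TGAGTCA, the site of AP-1 factors, so the letters serve both motifs. The Gstm5 match begins 42 bases before the start. A match was held by 10 of the 60 members that have a promoter sequence here, 16.7%, beside 17.1% of 6780 genes on the arrays. Those with a match included Gclm, Txnrd1, Mgst1 and Gsta3 as well as Prdx1 and Gstm5, which lie on both sides of 0. A match is a description of letters and not a site.

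Against the embryo, the members as a whole lay where the other genes lay. Their median over the 0, 2, 7 and 21 h arrays was -0.01, beside 0.01 for all named genes. Of the 70 members, 3 were higher than the embryo by the size rule on each of these arrays, namely Hmox1, Akr1b8 and Prdx1, where 3.38% of all genes were. The 2 that were lower on each array were Gstm5 and Gstt1, where 4.76% of all genes were. By the weaker criterion of the same sign on each of the 4 arrays, 24 members, or 34.3%, were above 0 (29.5% of all genes). Below 0 were 26, or 37.1% (29.8% of all genes). The counts past the size rule lie near the shares of all genes, and the shares of one sign lie somewhat above them on both sides. The set is described below by its single enzymes and families.

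**Figure D1:**
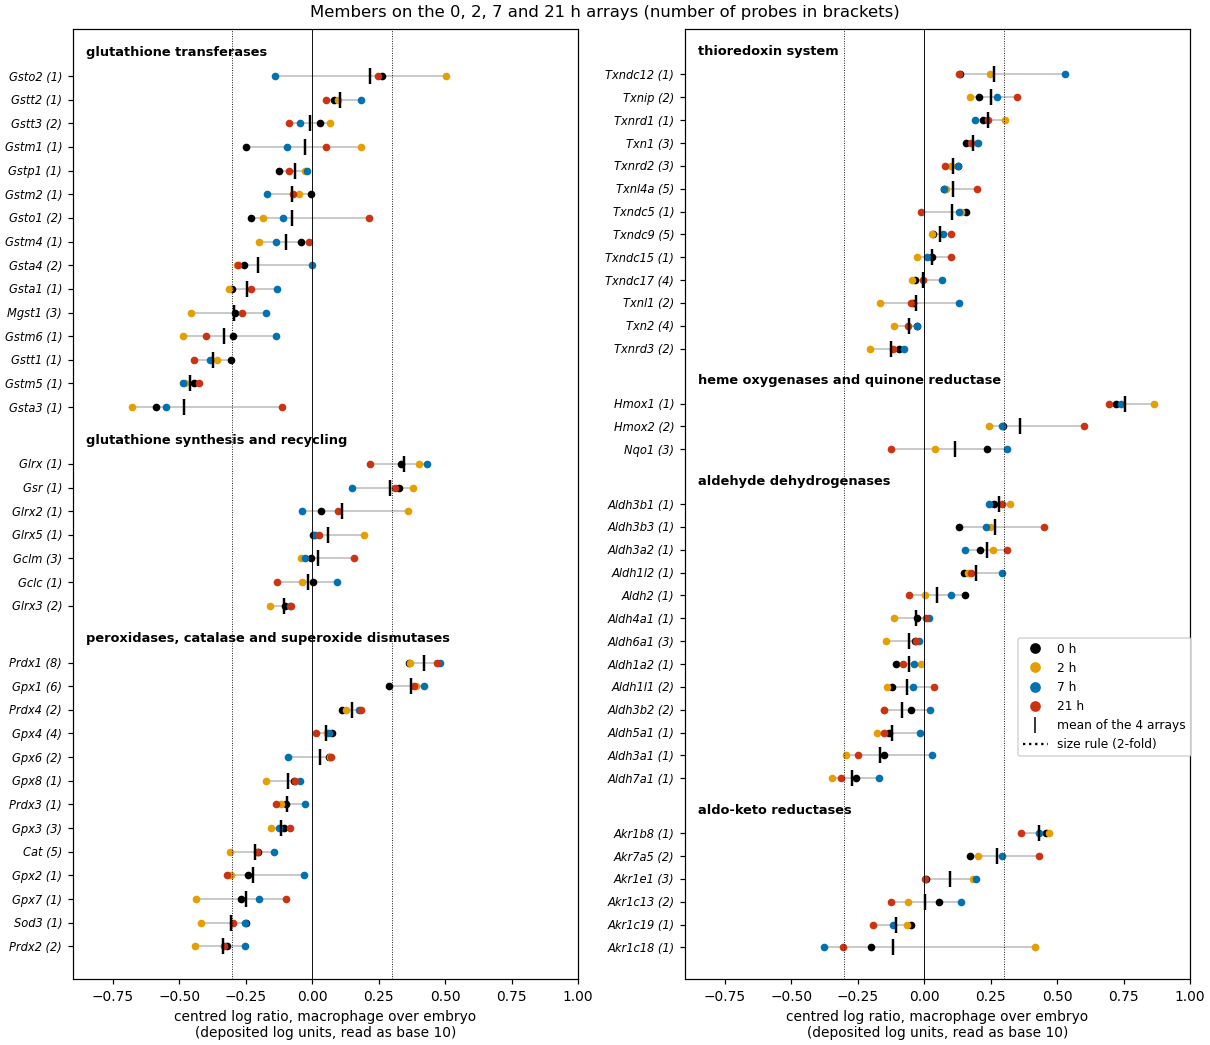
Centred log ratio of macrophage over embryo RNA (horizontal axis, deposited log units read as base 10) for the 70 members with a value on all 5 arrays, grouped by role. Points are the 0, 2, 7 and 21 h arrays, the bar their mean, dotted lines the size rule of 0.301; Hmox1 stands farthest to the right (mean 0.75) and Gsta3 farthest to the left (mean -0.48).

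The heme-degrading and quinone-reducing enzymes held the member farthest above the embryo. Hmox1, the inducible heme oxygenase, read 0.72, 0.83, 0.87, 0.74 and 0.69 at 0, 0.5, 2, 7 and 21 h on 1 probe. It was past the size rule on all 5 arrays, and its mean over the 4 arrays of 0.75 ± 0.08 (SD over the 4 arrays) is 5.68-fold on the base 10 reading. With quantile normalization the mean was 0.95, a larger fold by over 1.5 times. Its difference from 0 h lay between -0.03 and 0.15 at every time. Hmox2, the constitutive heme oxygenase, averaged 0.36 ± 0.16 (SD over the 4 arrays) on 2 probes, and its 21 h value stood apart, as described with the times. Nqo1, which reduces quinones with NADPH and is a classical NRF2 target, averaged 0.12, with 3 probes at -0.11, 0.36 and 0.09. Ftl1 and Fth1, the ferritin chains that store the iron released from heme, averaged 0.67 ± 0.24 (6 probes) and 0.54 ± 0.08 (4 probes, both SD over probes). Blvra, a biliverdin reductase that acts on the product of heme oxygenase, averaged 0.28, and Blvrb -0.14.

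The peroxidases split between family members. Prdx1, a cytosolic peroxiredoxin that thioredoxin reduces, read 0.36, 0.27, 0.37, 0.48 and 0.47 at 0, 0.5, 2, 7 and 21 h. Its mean of 0.42 ± 0.19 (SD over 8 probes) is 2.63-fold on the base 10 reading, and 7 of the 8 probes averaged above 0. The probe that did not averaged -0.03, and the next lowest 0.42. Prdx2, the peroxiredoxin known for its abundance in red cells, read -0.32, -0.17, -0.44, -0.25 and -0.33 on the same arrays. Both of its probes averaged below 0, and its mean was -0.34 ± 0.04 (SD over 2 probes). The Prdx1 ratio was above 0 and the Prdx2 ratio below it on all 5 arrays. Prdx4, the peroxiredoxin of the secretory pathway, averaged 0.15 ± 0.10 (SD over 2 probes), and Prdx3, that of mitochondria, -0.09 on 1 probe.

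Among glutathione peroxidases Gpx1, the cytosolic enzyme, read 0.29, 0.23, 0.39, 0.42 and 0.38 at 0, 0.5, 2, 7 and 21 h. It missed the count of higher members by its 0 h value alone among the 4 arrays, and 5 of its 6 probes averaged above 0.3, while the other averaged -0.04. Gpx4, which reduces lipid hydroperoxides in membranes, was near 0 at 0.05 ± 0.10 (SD over 4 probes). The other members of the family were Gpx6 (0.03), Gpx8 (-0.09), Gpx3, the plasma enzyme (-0.12), Gpx2, known from gut epithelium (-0.22), and Gpx7, of the endoplasmic reticulum (-0.25). Thus Gpx1 was the single glutathione peroxidase with a mean above 0.1.

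Catalase, encoded by Cat, which breaks down hydrogen peroxide in peroxisomes, read -0.21, -0.37, -0.31, -0.14 and -0.21 at 0, 0.5, 2, 7 and 21 h, below 0 on all 5 arrays. Its 5 probes ranged in mean from -0.58 to 0.03, a spread (SD 0.23) as wide as the gene's mean of -0.22. Sod3, the extracellular superoxide dismutase, averaged -0.30 ± 0.08 (SD over the 4 arrays) on 1 probe. Of 13 genes of peroxidases, catalase and superoxide dismutases, 5 had a mean above 0 and 8 below it, with a median of -0.09, beside 4380 above and 4072 below among all genes. On the same arrays the 5 erythroid markers had a median of -0.60, from Hbb-b1 at -1.87 to Slc4a1 at 0.17. The 8 fetal liver markers had a median of -0.89, from Alb at -1.74 to Apoa2 at -0.15. The part of fetal red cells and liver in the ratios of Prdx2, Cat and Sod3 was not tested. In such bulk RNA, fewer cells of a type and less RNA per cell cannot be told apart.

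**Figure D2:**
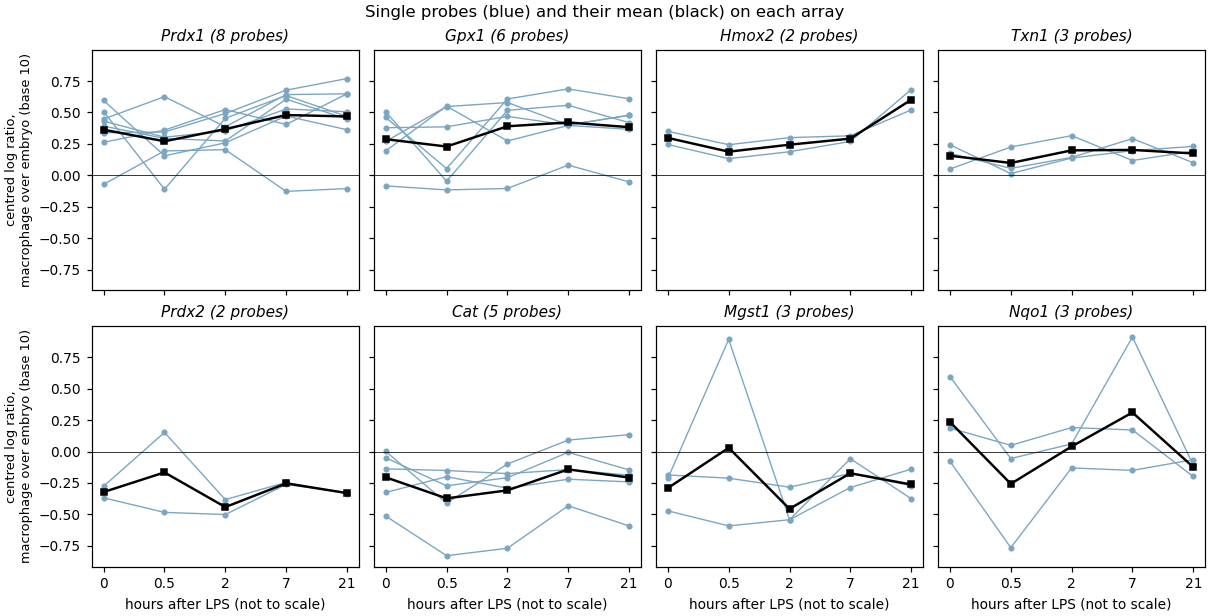
Centred log ratio of macrophage over embryo (vertical axis, base 10 reading) on each array (horizontal axis, hours after LPS, not to scale) for 8 members with at least 2 probes; blue lines are single probes, black squares their mean. Most Prdx1 and Gpx1 probes lie above 0 and both Prdx2 probes below it on the 0, 2, 7 and 21 h arrays, while the 3 Nqo1 probes differ from each other.

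Most glutathione transferases had a mean ratio below 0. This held for 13 of 15 measured genes, beside 4072 of all 8452 genes, and the median was -0.10; in the other scalings 12 or 13 were below 0. None was past the size rule upwards on all 4 arrays. Gstm5, a mu-class transferase known from brain and testis, read -0.44, -0.68, -0.48, -0.49 and -0.43 at 0, 0.5, 2, 7 and 21 h. Gstt1, a theta-class enzyme that acts on small halogenated compounds, read -0.31, -0.44, -0.36, -0.38 and -0.44. Both were past the size rule on all 5 arrays, each on 1 probe, but Gstt1 was no longer past it on each of the 4 arrays without centring or with a running median over probe numbers removed. Gsta3, an alpha-class transferase, had the lowest mean of all members (-0.48) and read -0.59, -0.31, -0.68 and -0.55 at 0, 0.5, 2 and 7 h but -0.11 at 21 h. Mgst1, the microsomal transferase abundant in liver, averaged -0.30 ± 0.07 (SD over 3 probes), with every probe below 0.

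The remaining transferases were within the size rule on at least 1 of the 4 arrays. Gstm6 averaged -0.33, Gsta1 -0.24 and Gsta4, which conjugates the lipid aldehyde hydroxynonenal, -0.20 ± 0.03 (SD over 2 probes). Gstm4 averaged -0.10, Gstm2 -0.07, Gstp1, the pi-class enzyme, -0.06, Gstm1 -0.03 and Gstt3 -0.01. Gsto1 averaged -0.08 and is described with the times. The 2 with a mean above 0 were Gsto2 (0.22), of the omega class that acts on dehydroascorbate, and Gstt2 (0.10). Genes of the alpha, mu and theta classes are close in sequence, and binding of the cDNA of a relative to a probe was not tested, so values of single members of a class are uncertain. Gstz1 (-0.17), Gstk1 (-0.05), Mgst2 (-0.03) and Mgst3 (0.04), transferases of other classes outside the rule, were also near or below 0.

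Enzymes that supply and recycle glutathione were near the median gene, with 2 exceptions. Glrx, the cytosolic glutaredoxin that removes glutathione from proteins, read 0.33, 0.27, 0.40, 0.43 and 0.22 at 0, 0.5, 2, 7 and 21 h. Gsr, glutathione reductase, read 0.33, 0.61, 0.38, 0.15 and 0.31. Both were above 0 on all 5 arrays. Gclc and Gclm, the catalytic and the modifier subunit of the glutamate-cysteine ligase, averaged -0.02 on 1 probe and 0.02 ± 0.17 (SD over 3 probes). Gss, which completes glutathione synthesis, averaged -0.05. Glrx3 and Glrx5, glutaredoxins of iron-sulfur cluster handling, averaged -0.11 and 0.06, and the mitochondrial Glrx2 0.11.

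Ratios of the thioredoxin system were small, with 9 of 13 genes above 0 in the mean, beside 4380 of all 8452 genes, and a median of 0.10; in the other scalings 9 or 10 genes were above 0. Txn1, cytosolic thioredoxin, read 0.16, 0.10, 0.20, 0.20 and 0.17 at 0, 0.5, 2, 7 and 21 h, and its 3 probes agreed closely (0.18 ± 0.02, SD over probes). Txnrd1, cytosolic thioredoxin reductase, read 0.22, 0.20, 0.30, 0.19 and 0.24 on 1 probe. Txnip, which binds and inhibits thioredoxin, averaged 0.25 ± 0.02 (SD over 2 probes). The mitochondrial partners were lower: Txnrd2 averaged 0.11 ± 0.19 (SD over 3 probes) and Txn2 -0.06 ± 0.14 (SD over 4 probes). Txnrd3, a reductase known from testis, averaged -0.12. None of these genes was past the size rule on all 4 arrays. Txndc12, a thioredoxin-like protein of the endoplasmic reticulum, had the highest mean (0.26, 1 probe), which rested on 0.53 at 7 h. Txnl4a, a spliceosome protein that shares the thioredoxin fold and enters by its name, averaged 0.11 ± 0.16 (SD over 5 probes).

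Aldehyde dehydrogenases and aldo-keto reductases remove reactive carbonyls, some of them products of lipid oxidation. Akr1b8, an aldose reductase relative that takes aliphatic and aromatic aldehydes, read 0.46, 1.12, 0.47, 0.43 and 0.36 at 0, 0.5, 2, 7 and 21 h on 1 probe. Its mean of 0.43 ± 0.05 (SD over the 4 arrays) was close to that of Prdx1, and the order of the 2 differed between settings. Akr1b8 was not past the size rule on each of the 4 arrays with the running median over probe numbers removed (mean 0.36). Akr7a5, an aflatoxin aldehyde reductase, averaged 0.27 ± 0.04 (SD over 2 probes). Akr1a1, which had no value at 0.5 h, read 0.18, 0.35, 0.30 and 0.53 on the other arrays and so was not among the 70 members counted. Aldh16a1 and Txndc2 likewise lacked 1 value and averaged -0.05 and 0.07 over those of the 0, 2, 7 and 21 h arrays that had one.

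Of 13 measured aldehyde dehydrogenases 5 had a mean above 0 and 8 below it. Those above included the related Aldh3b1 (0.28) and Aldh3b3 (0.27), Aldh3a2, the fatty aldehyde dehydrogenase (0.23), and Aldh1l2, a mitochondrial folate enzyme (0.20). A second probe of Aldh3b1, without a value at 0.5 h, averaged 0.59. Aldh2, the mitochondrial acetaldehyde dehydrogenase, was near the median at 0.05. Aldh7a1, of lysine breakdown, had the lowest mean of the family at -0.27, followed by Aldh3a1, known from cornea and stomach, at -0.17. Aldh1a2, which makes retinoic acid in the embryo, averaged -0.06.

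Probes of the same gene often disagreed. In 17 of the 31 members with at least 2 probes, the probe means lay on both sides of 0, beside 47.6% of 2968 such genes in all. Against the embryo no member had every one of at least 2 probes past the size rule on all 4 arrays, in either direction (1.04% of such genes were higher and 1.62% lower).

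Over time after LPS, most members kept their ratio. Differences at 2, 7 and 21 h all use the same 0 h array and so are not independent of each other. At 2, 7 and 21 h alike, 60 of the 70 members stayed within the size rule of 0 h, beside 83.8% of all genes. The median range of a member over the 4 arrays was 0.17, beside 0.20 for all genes. The gene means of Txnrd2, Txn1 and Gpx4 had SDs over the 4 arrays of 0.02, 0.02 and 0.03, but single probes moved more. The 3 Txnrd2 probes differed from 0 h by -0.32, 0.19 and -0.01 at 21 h, the first of them past the size rule. Gclc, Gclm, Gsr, Hmox1 and Txnrd1 were within the size rule at 2, 7 and 21 h, with differences from -0.18 (Gsr at 7 h) to 0.16 (Gclm at 21 h). Nqo1 (-0.36 at 21 h) and Gstm1 (0.43 at 2 h) were not, and are described below. Of the 10 members past the size rule at any of these times, 7 were measured on 1 probe, as were 39 of all 70 members. Gstm1, past it at 2 h, missed it narrowly at 21 h (0.299).

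**Figure D3:**
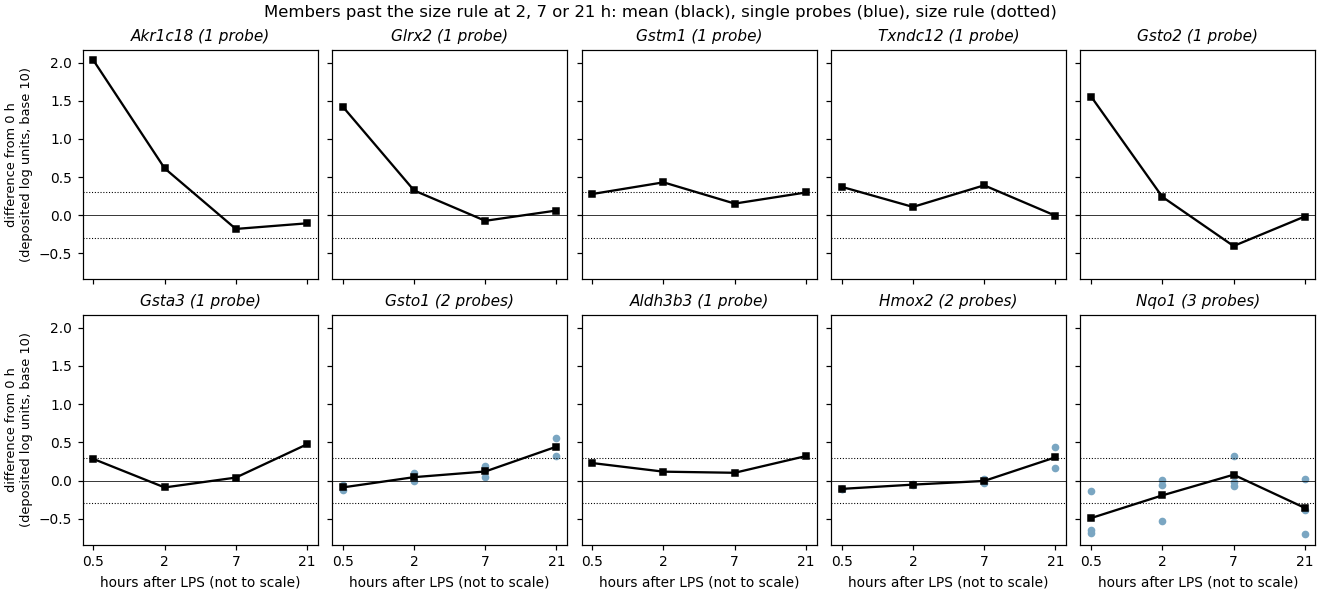
Difference in centred log ratio from the 0 h array (vertical axis, deposited log units read as base 10) at 0.5, 2, 7 and 21 h (horizontal axis, not to scale) for the 10 members past the size rule at 2, 7 or 21 h. Black squares are genes, blue points single probes where there are several, dotted lines the size rule of 0.301; Gsto1 has both probes past it at 21 h.

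At 2 h, 3 members were past the size rule (6.81% of all genes were), of which 3 were higher than at 0 h (4.24% of all genes) and 0 lower (2.58% of all genes). Akr1c18, which converts progesterone to an inactive steroid, read 0.42 at 2 h against -0.20 at 0 h, a difference of 0.62. It read 1.83 at 0.5 h, -0.38 at 7 h and -0.30 at 21 h. Gstm1 read 0.18 at 2 h against -0.25 at 0 h, a difference of 0.43, and stood at 0.05 at 21 h. Its 21 h difference of 0.299 lay just within the rule. That difference was past the rule without centring, with quantile normalization and with arrays scaled to one median absolute deviation. The same held with the running median over probe numbers or a loess trend removed. It stayed within the rule with the median probe, without the 0.5 h array and against the mean of the other arrays. Against the mean of the other arrays its 2 h difference was 0.28. Glrx2 read 0.36 at 2 h against 0.03 at 0 h, a difference of 0.33, after 1.46 at 0.5 h. Each of the 3 rests on 1 probe. Around the Glrx2 probe, 16.0% of the 268 probes within 180 probe numbers were also higher at 2 h, beside 5.43% of all probes, and with a running median over probe numbers removed the difference was 0.17. The part of probe position in this difference was not tested.

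At 7 h, 2 members were past the size rule (4.74% of all genes), 1 of them higher (3.35% of all genes) and 1 lower (1.4% of all genes) than at 0 h. Txndc12 read 0.53 at 7 h against 0.14 at 0 h, a difference of 0.39, and was back at 0.13 at 21 h. It also read 0.51 at 0.5 h. Around its probe 9.27% of neighbouring probes were higher at 7 h, beside 4.16% of all probes. With a loess trend removed the 7 h difference was 0.32. Gsto2 read -0.14 at 7 h against 0.26 at 0 h, a difference of -0.40, and 0.25 at 21 h. Both rest on 1 probe. With the running median over probe numbers removed the Gsto2 difference was -0.29.

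At 21 h, 5 members were past the size rule (9.02% of all genes), 4 of them higher (4.33% of all genes) and 1 lower (4.69% of all genes) than at 0 h. Gsto1, the omega-class transferase that also reduces dehydroascorbate and is known to act in inflammasome activation of macrophages, read -0.23, -0.32, -0.18, -0.11 and 0.21 at 0, 0.5, 2, 7 and 21 h. The 21 h value is the single one above 0. The difference from 0 h was 0.44 ± 0.17 (SD over 2 probes), 2.77-fold on the base 10 reading, with the probes at 0.56 and 0.33. Gsto1 was the 1 member of 31 with several probes in which every probe was higher by the size rule at 21 h, where 0.303% of such genes were. In 0 of the 31 was every probe lower, where 0.337% of such genes were. Its difference stayed past the size rule in all 8 alternative settings, between 0.39 and 0.54. The 2 probes lie far apart in probe number, and among their neighbours 13.9% and 8.23% were higher at 21 h, beside 5.89% of all probes.

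Hmox2 read 0.30, 0.19, 0.24, 0.29 and 0.60 at 0, 0.5, 2, 7 and 21 h. The difference at 21 h was 0.30 ± 0.19 (SD over 2 probes), just past the size rule, with the probes at 0.17 and 0.44. Both probes were highest at 21 h, though 1 of them was not past the rule. With a loess trend removed the difference was 0.26. Gsta3 read -0.11 at 21 h against -0.59 at 0 h, a difference of 0.47 on 1 probe, and was past the rule in all 8 alternatives. Aldh3b3 read 0.45 at 21 h against 0.13 at 0 h, a difference of 0.32 on 1 probe. Around that probe 13.0% of neighbouring probes were higher, and the difference was 0.26 with the running median removed, 0.29 with a loess trend removed and 0.25 against the mean of the other arrays. This probe and 1 of the Gsto1 probes are neighbours by probe number. Akr1a1, outside the 70 for its missing 0.5 h value, differed by 0.35 at 21 h.

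Nqo1 was the member lower at 21 h, at -0.12 against 0.23 at 0 h. Its difference of -0.36 ± 0.36 (SD over 3 probes) was no larger than the spread between its probes, which differed by 0.01, -0.70 and -0.38. The probe that differed most also read 0.91 at 7 h and 0.60 at 0 h. All 3 probes sit in a stretch where 13.9% to 16.6% of neighbours were lower at 21 h, beside 7.20% of all probes, and with the running median removed the difference was -0.25. For the median probe of each gene, Nqo1 was not among the members past the rule.

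The 0.5 h array, which departs from the rest, had the largest share of members past the size rule. On it 14 members were past the size rule (30.5% of all genes), 11 of them higher (19.9% of all genes) and 3 lower (10.6% of all genes) than at 0 h. The 5 highest were Akr1c18 (2.03), Gsta1 (1.70), Gsto2 (1.55), Glrx2 (1.42) and Akr1b8 (0.66), each on 1 probe. Lowest were Aldh1a2 (-0.74), Nqo1 (-0.49 ± 0.31, SD over 3 probes) and Aldh5a1 (-0.31). Around the probes of Gsto2 and Glrx2, 62.4% and 60.1% of neighbouring probes were higher at 0.5 h, beside 20.9% of all probes. With a loess trend removed Akr1c18 was at 0.85, Gsta1 at 1.01, Glrx2 at 0.37, Akr1b8 at -0.47 and Gsto2 at -0.01. With quantile normalization the same genes were at 1.27, 1.16, 0.80, 0.07 and 0.71, in that order, so their sizes at 0.5 h depend on the scaling. The lower Aldh5a1 was within the rule in 5 of 6 alternatives, and Nqo1 with the median probe (-0.24). With the loess trend removed, the members past the rule split into 7 higher and 6 lower. Without trend removal, Akr1c18 and Glrx2 were higher by the size rule at both 0.5 and 2 h. The same overlap was not counted for all genes, so it is no result about the members. No member had all of at least 2 probes past the rule at 0.5 h (2.7% of such genes higher and 1.21% lower).

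**Figure D4:**
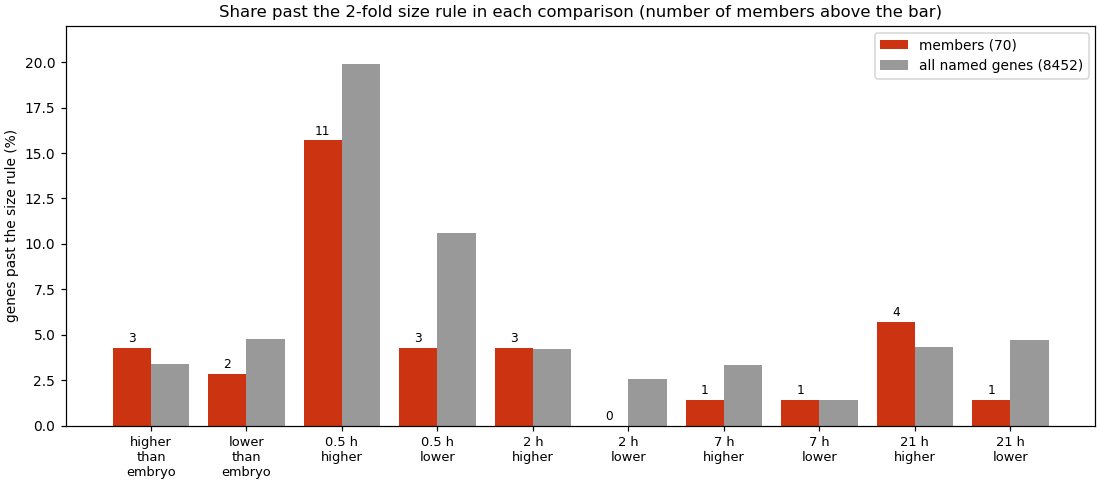
Share of genes past the 2-fold size rule (vertical axis, percent) in each comparison, for the 70 members (red) and all 8452 named genes (grey); numbers above the red bars are members. The comparisons with the embryo require the rule on each of the 0, 2, 7 and 21 h arrays; for example 3 members, or 4.29%, and 3.38% of all genes higher than embryo.

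Other genes of the pathway, 49 listed and 29 measured, had a median of 0.11 against the embryo over the 4 arrays, beside 0.01 for all genes. Of these, 6 of 29 were higher by the size rule on each array, where 3.38% of all genes were, and 2 lower, where 4.76% of all genes were. The 6 were Ftl1, Fth1, Nfe2l2, Cyba, Ncf4 and Rac2. The list was picked by hand with earlier results of these data known, so these counts describe the list and are no test of the pathway. The oxidant-producing NADPH oxidase was represented by its membrane subunit Cyba (0.54), the cytosolic regulator Ncf4 (0.43) and the GTPase Rac2 (0.48 ± 0.41, SD over 4 probes). Nfe2l2 read 0.40, 0.40, 0.49, 0.68 and 0.61 at 0, 0.5, 2, 7 and 21 h, with a mean of 0.54 ± 0.08 (SD over 2 probes), and its inhibitor Keap1 averaged 0.21. The small MAF proteins that pair with NRF2 were split, with Mafg at 0.19 and Mafk at -0.58. Mafk and Sesn1 were the 2 that were lower, and the 2 Sesn1 probes differed so far (-1.03 ± 1.68, SD over probes) that the gene's mean describes neither.

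Over time, 3, 1 and 3 of these 29 genes were higher by the size rule at 2, 7 and 21 h, where 4.24%, 3.35% and 4.33% of all genes were. At the same times 0 were lower, where 2.58%, 1.4% and 4.69% of all genes were. The higher counts at 2 and 21 h lay above the shares of all genes. They are few genes of a list picked by hand and are no test of it. Xdh, xanthine dehydrogenase, which can produce superoxide, read -0.04, -0.21, 0.36, 0.62 and 0.34 at 0, 0.5, 2, 7 and 21 h on 1 probe. Its differences of 0.40, 0.66 and 0.39 at 2, 7 and 21 h were past the size rule at all 3 times. Chac1, which breaks down glutathione, differed by 0.35 at 2 h and Msra, which repairs oxidised methionine, by 0.32. At 21 h Selenop, a selenium carrier secreted by liver and macrophages, differed by 0.58 and Blvra by 0.42, each on 1 probe. The NADPH-supplying enzymes Tkt, Me1 and Idh1 had no difference past the rule at 2, 7 or 21 h.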

How the data were processed

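Values were taken as the authors deposited them, a log ratio for each probe on each array, and are read as log10 ratios, a base judged from the size of the globin and albumin ratios, which no label states. Per the labels, cDNA of total RNA was labelled indirectly through amino-allyl groups with Cy3. The sources used here do not give the scanner, the background correction or the normalization, and the dye direction is unknown. Deposited array medians lay between 0.00 and 0.07. Scanner intensities were not used here. With 1 array per time, their number sets the precision.

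Among the 19828 probes, a single gene symbol was given for 14759, several for 170 and none here for 4899, and 14628 matched a RefSeq gene by Entrez identifier. Probes with values on all 5 arrays were averaged per gene and each array was centred on the median of 8452 genes. The SD between probes, or over the 4 arrays where so named, holds no spread between replicate cultures. Members and lists were chosen with earlier results of these data known. Genes were named as follows: the 10 farthest from embryo in each direction among those counted, all past the size rule at 2, 7 or 21 h, up to 5 in each direction at 0.5 h, the extremes of 7 role groups and a panel of 21 enzymes, 17 of them with a value on all 5 arrays; other members are given by value. Alternatives were other scalings, probe joining, size rules, baselines, missing-value rules, a log base of 2 and removal of trends on mean ratio (lowess fraction 0.3) or probe number. The steps were tested on simulated data with planted changes well beyond the size rule, so that check does not cover differences near the rule. Python 3.11.15, numpy 2.4.6, pandas 2.3.3, statsmodels 0.14.6 and matplotlib 3.10.9 were used.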

Additional observations from a re-analysis of the deposited data

How the results depend on the processing

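Each time is 1 array, so these are values with no test, and the cause of a change was not tested unless the setting itself gives it. No paired analysis was possible because each group holds 1 sample. Of the members higher than embryo, the count of 3 became 1 with a 3-fold size rule and 0 when the ratios were read as base 2. Of those lower, the count of 2 became 1 without centring and 1 with the running median over 400 probe numbers removed, 4 with arrays scaled to one median absolute deviation, 0 with the 3-fold rule and 0 read as base 2. The members' median of -0.01 was 0.0028 without centring and 0.0032 over all 5 arrays. At 0.5 h the 14 members past the size rule became 8 with the 3-fold rule and 4 read as base 2. At 2 h the 3 became 5 with the median probe, 1 with the 3-fold rule and 0 read as base 2. At 7 h the 2 became 1 with the running median removed, 0 with the 3-fold rule and 0 read as base 2. At 21 h the 5 became 0 with the 3-fold rule and 0 read as base 2. The other 44 recomputed counts and medians stayed within 1.5 times, or within the spread of the array medians. With a loess trend removed, Akr1b8 at 0.5 h reversed to -0.47 and Gsto2 to -0.0148. No other named difference changed sign. The missing log base limits every count, and single probes limit 39 of the 70 members.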

Other observations

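Several members whose mean lies near 0 hold probes that stand far apart, so their gene values describe no single probe. The 4 probes of Txndc17, a cytosolic thioredoxin-like protein, averaged -0.07, 0.20, -0.41 and 0.26 over the 0, 2, 7 and 21 h arrays. The 2 probes of Akr1c13, a hydroxysteroid dehydrogenase, averaged -0.26 and 0.27. Of the 3 Akr1e1 probes with all values, 1 averaged 0.45 and read 0.91 at 7 h, while the others averaged 0.02 and -0.18. The 3 probes of Aldh6a1, of valine breakdown, averaged -0.39, 0.08 and 0.14. Prdx1 probe 5724 differed by 0.43 at 21 h and probe 16 by -0.23, where the gene differed by 0.11.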
